A study of Mus musculus with 29 samples.

Results

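The genes described here encode the extracellular matrix proteins other than collagens, and the integrins through which cells hold on to them. They were taken from the gene table by symbol: integrin alpha and beta chains, laminin chains, fibulins, fibrillins, microfibril-associated proteins, thrombospondins and nidogens, together with a list of single genes that includes fibronectin, the small leucine-rich proteoglycans, tenascin-C, versican and perlecan. Of 11959 genes in the table, 44 met this rule, and 23 further symbols that the rule names are not analysed here. Among those 23 are the microfibril-associated proteins (Mfap2, Mfap4 and Mfap5) and elastin (Eln). The 44 comprised 10 basement membrane genes, 6 elastic fibre genes, 7 other matrix proteins, 4 small leucine-rich proteoglycans, 3 thrombospondins, 8 integrin alpha chains, 4 integrin beta chains and 2 genes for proteins that bind integrin tails or share that name, Itgb1bp1 and Itgb3bp, which the symbol pattern also takes.

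Expression was measured by RNA sequencing in 3T3-L1 cells, an established mouse fibroblast line that turns into fat cells when confluent cultures receive an adipogenic mixture. Confluent cells were given 10 µM KDM5-C70 (C70) or DMSO vehicle from day -2 to day 0. C70 is an inhibitor of the KDM5 family of histone H3 lysine 4 demethylases. Neither C70 nor vehicle was given after day 0. Cultures were collected at day 0, before differentiation, or at days 1, 2 and 7 after the adipogenic mixture was added to vehicle and C70 cells alike, as 3 vehicle and 4 C70 samples at days 0, 1 and 2 and 4 of each at day 7. All 29 samples came from the same line, no label says that replicates came from separate cultures, and P values therefore measure only the spread between these samples, which may be technical.

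The extracellular matrix is the meshwork around cells. Laminins, nidogens and perlecan build the basement membrane, the sheet that wraps each mature fat cell, whereas fibronectin, fibrillin and fibulins form the fibrillar matrix laid down by fibroblasts. Integrins are pairs of 1 alpha and 1 beta chain that span the cell membrane. Chains such as Itga5 and Itgav pair with beta chains to bind fibronectin and related ligands, while Itga6, Itga7 and Itga3 form laminin receptors with Itgb1. During adipogenesis a fibronectin-rich matrix is known to give way to a basement membrane, and matrix composition is known to affect how readily precursors differentiate.

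The libraries held 16320275 to 24037170 counts each. Levels are given as CPM (counts scaled to a common library total, after adjustment by the trimmed mean of M values, TMM). Differences are given as log2 fold changes ± SE from the edgeR quasi-likelihood test. A gene was called a differentially expressed gene (DEG) at an adjusted P value (Benjamini-Hochberg over all genes of the comparison) under 0.05 and a log2 fold change beyond 0.32 in either direction, here called the fold-change limit. The labels describe every sample as adipocytes, but the summed CPM of 7 adipocyte markers was 1276 to 1399 in vehicle samples at day 0 and 25063 to 30364 at day 7. Of the markers listed for endothelial (5) and epithelial (4) cells, 0 are among the genes analysed, and 1 of 5 macrophage markers is (Cd68). In such bulk libraries, fewer cells of a type and less RNA per cell cannot be told apart. Vehicle replicate 1 of day 7 stood apart from the other 3 of its group (chi-square of counts per degree of freedom 39.8 to 46.7, beside 2.65 to 13.9 in all other pairs of replicates). Without it, 26 members were higher and 1 lower with C70 at day 7, beside 29 and 1 with it, and the calls of Itgb2, Lama4 and Lama5 were lost. The annotation places a gene on the opposite strand over 19 of the 44 members and a gene on the same strand over 12. Since the strand setting of the counting is not given in the sources used here, the values of members that share bases with an antisense protein-coding gene (Nid2, Efemp2, Itga7, Itgb1bp1, Itgb3bp, Ogn, Thbs3 and Fn1) are uncertain to that extent.

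Compared per kilobase of exon in the confluent vehicle cells of day 0, the 5 highest members were secreted matrix proteins. Fn1 (fibronectin) stood at 1327 CPM per kb, Bgn (biglycan) at 984, Fbln2 (fibulin 2) at 526, Sparc (a secreted calcium- and collagen-binding glycoprotein) at 489 and Postn (periostin) at 256. Among integrins on the same per-kb scale, Itgb1, the beta chain shared by most matrix receptors, stood at 174, Itgb5 at 63.6, Itga5 at 47.2 and Itgav at 33.7, while the laminin receptor chains Itga6, Itga3 and Itga7 stood at 4.75, 3.20 and 0.626. By day 7 the order in vehicle cells had become Bgn (299 CPM per kb), Sparc (198), Nid1 (111), Itgb1 (90.2) and Fn1 (83.0), and Itga6 at 47.7 was the highest alpha chain.

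The normal course was measured by comparing vehicle cells with vehicle cells of day 0, and the 3 comparisons share those day 0 samples. Most members fell. Of the 44, 33 were DEGs at day 1, 27 of them with lower and 6 with higher expression (background over all 11959 genes 54.1%, with 27.9% lower and 26.2% higher). At day 2 there were 39, with 33 lower and 6 higher (background 65.8%, with 32.4% lower and 33.4% higher), and at day 7 there were 37, with 34 lower and 3 higher (background 73.5%, with 36.7% in each direction). The median log2 fold change of the members was -0.72, -1.64 and -1.84 at days 1, 2 and 7, beside a median near 0 over all genes. At day 7 all 6 elastic fibre genes, all 4 small leucine-rich proteoglycans, all 3 thrombospondins, all 4 integrin beta chains, 6 of 7 other matrix proteins, 7 of 10 basement membrane genes and 4 of 8 integrin alpha chains were lower than at day 0.

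The largest falls were those of Tnc, Fbn1 and Fbln7. Tnc encodes tenascin-C, a large glycoprotein that weakens adhesion to fibronectin. It measured 297, 313 and 302 CPM in vehicle cells at day 0 and 3.259, 4.56, 2.60 and 4.49 CPM at day 7, a log2 fold change of -6.36 ± 0.11 (adjusted P = 2.3e-29). Fbn1, which encodes the microfibril protein fibrillin 1, went from 509, 574 and 527 CPM to 11.7, 14.1, 12.98 and 14.6 CPM, a log2 fold change of -5.33 ± 0.09 (adjusted P = 2.0e-30). No sample of day 7 came near a sample of day 0 for either gene. Fbln7, a cell adhesion protein of the fibulin family, fell by 4.67 on the log2 scale and Itgb2, the beta chain of the leukocyte integrins, by 4.32. Fn1, the highest member per kb at day 0, went from 14509, 16460.0 and 15541 CPM to 818, 975, 1004 and 1081 CPM, a log2 fold change of -4.00 ± 0.08 (adjusted P = 2.6e-28).

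Among the 3 members that were DEGs with higher expression in vehicle cells at day 7 than at day 0 were the laminin receptor chains Itga7 and Itga6. Itga7, a laminin receptor chain best known from muscle, went from 4.91, 4.94 and 5.34 CPM to 142, 160.0, 149 and 159 CPM, a log2 fold change of 4.91 ± 0.07 (adjusted P = 4.5e-31). Itga6 went from 38.2, 47.5 and 42.9 CPM to 351, 480.1, 464 and 426 CPM, a log2 fold change of 3.33 ± 0.08 (adjusted P = 6.8e-26). The day 0 and day 7 samples did not overlap for either gene. At day 1, Dpt, Ecm1, Vcan, Lamb1, Nid2 and Itga6 were higher than at day 0, and of these Ecm1, Vcan, Lamb1 and Nid2 were lower at day 7 than at day 0.

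In C70-treated cells, a larger share of the members than of all genes was called on each day, mostly with higher expression. At day 0, 11 members were higher and 3 lower than in vehicle cells, 31.8% of the 44 beside 8.97% of all genes. At day 1, 24 were higher and 1 lower (background 21.4%), at day 2 29 were higher and 3 lower (background 30.5%), and at day 7 29 were higher and 1 lower (background 19.1%). By direction, 5.89%, 13.6%, 16.9% and 14.3% of all genes were higher at days 0, 1, 2 and 7, and 3.09%, 7.8%, 13.6% and 4.85% were lower. The median log2 fold change of the members was 0.11, 0.34, 0.58 and 0.44 on these days, and that of all genes was near 0 throughout. Quantile normalization lowered the share of higher genes among all DEGs from 63.6% to 50.9% at day 1 and from 74.6% to 60.5% at day 7, while among member DEGs it went from 96.0% to 91.3% and from 96.7% to 92.9%.

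**Figure D1:**
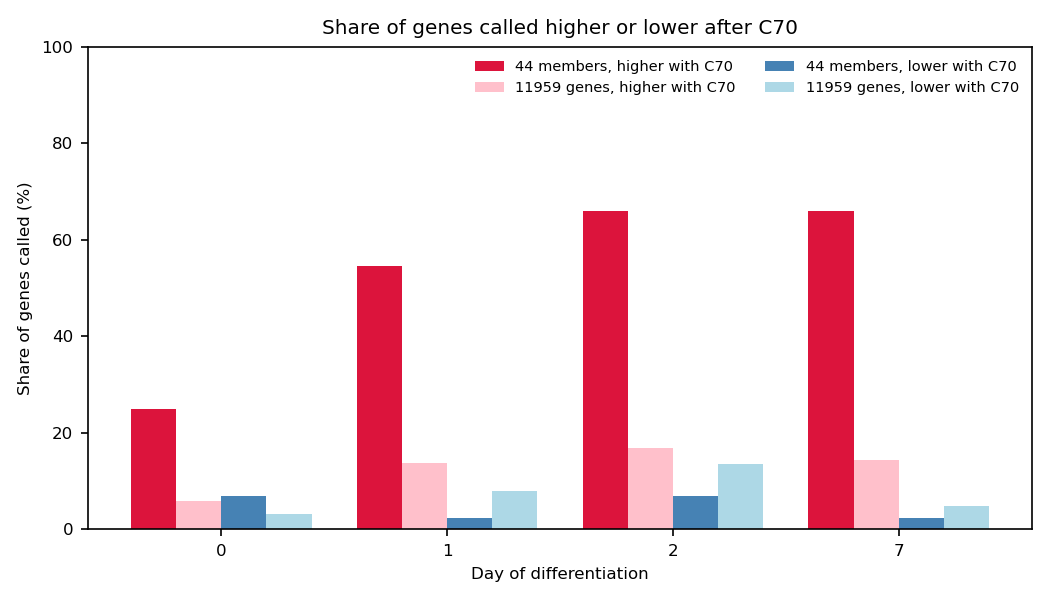
Share of genes (%, vertical axis) called higher (red) or lower (blue) with C70 than with vehicle at each day of differentiation (horizontal axis), for the 44 members (dark bars) and for all 11959 genes of the table (pale bars). The dark red bars stand above the pale red bars on each day, with 24 members higher at day 1 and 29 at days 2 and 7.

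Altogether 40 of the 44 members (90.9%) were DEGs on 1 or more days, beside 44.5% of all genes. Of these, 24 members (54.5%, background 9.26%) were higher at both day 2 and day 7, and 19 (43.2%, background 5.91%) at days 1, 2 and 7. In contrast, 8 members (18.2%) were lower on any day, beside 21% of all genes, and 5 of them (Fbln7, Itga6, Lum and Nid2 among them) changed direction between days (11.4% of members, background 2.83%). The 4 members that were no DEG on any day were all integrins, Itgav, Itgb1, Itgb5 and Itga10. Because the members share the samples, these counts are descriptions of the group and were not tested as a set.

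**Figure D2:**
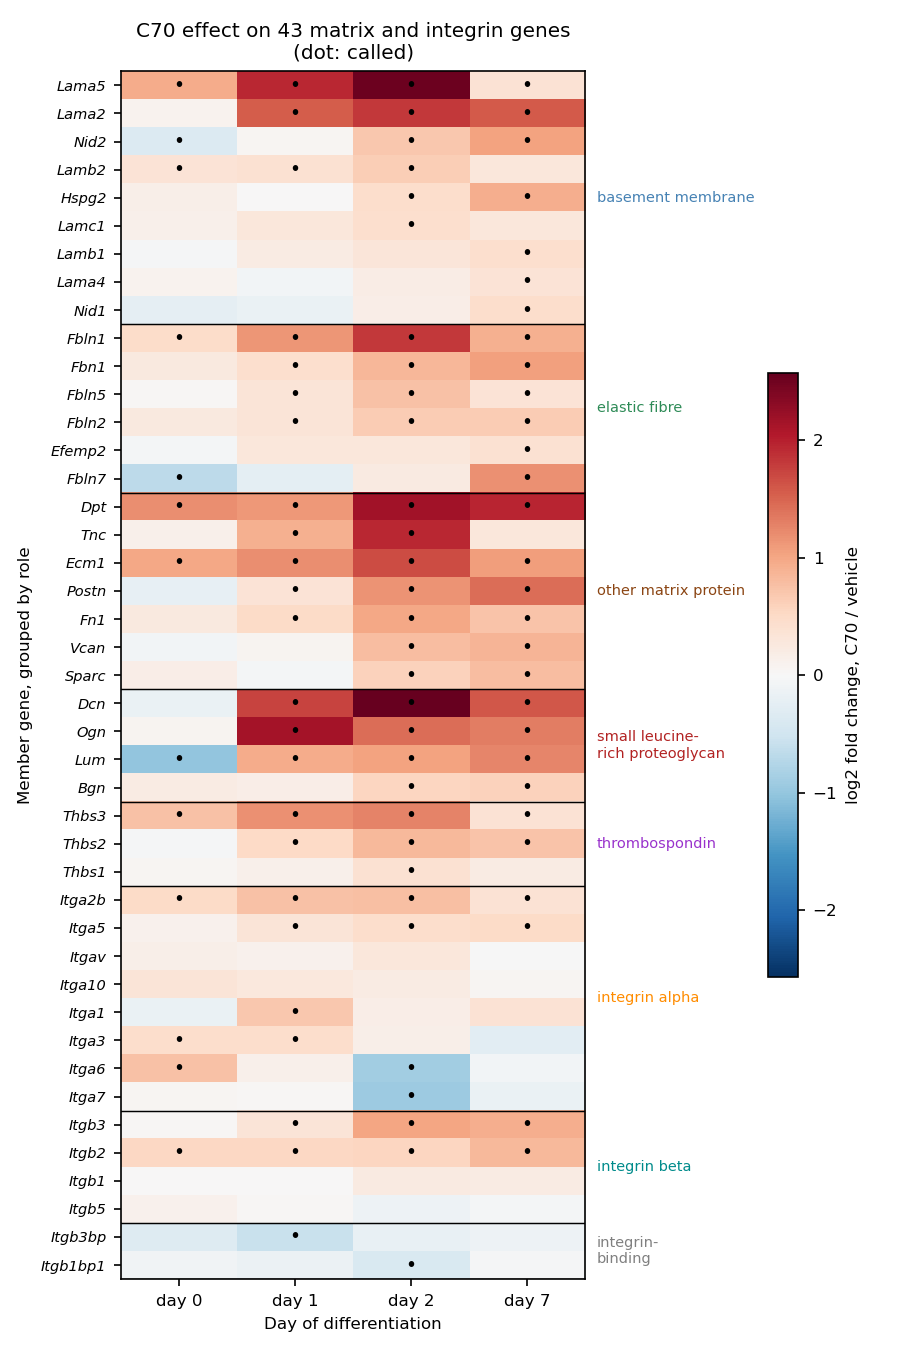
Log2 fold change between C70 and vehicle cells (colour, red for higher with C70) of 43 member genes (rows, grouped by role) at days 0, 1, 2 and 7 (columns), with a dot where the gene was called. Red is widespread in the matrix protein rows at days 1, 2 and 7, where Dcn reaches 2.57 and Lama5 2.52 at day 2, and less so in the integrin rows.

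Dpt, Ecm1, Fbln1, Lama5, Thbs3, Itga2b and Itgb2 were higher on all 4 days (15.9% of members, background 2.06%). Dermatopontin (Dpt) is a small matrix protein that binds decorin, and Dpt lies at chr1:164796644-164824266 on the plus strand of GRCm38. It measured 29.9, 28.4 and 27.1 CPM in vehicle and 70.1, 58.8, 62.7 and 67.5 CPM in C70 cells at day 0. The values of day 1 were 102, 110.0 and 117 CPM in vehicle and 232, 230.5, 232 and 254 CPM in C70 cells. At day 2 it measured 60.0, 51.3 and 59.3 CPM in vehicle and 260.4, 234, 254 and 269.8 CPM in C70 cells. By day 7 these had become 41.9, 23.4, 24.5 and 29.1 CPM in vehicle and 115, 112, 112 and 122 CPM in C70 cells. Every C70 sample exceeded every vehicle sample of its day. In log2 terms C70 exceeded vehicle by 1.19 ± 0.11 (adjusted P = 3.0e-09), 1.12 ± 0.10 (adjusted P = 3.4e-10), 2.16 ± 0.11 (adjusted P = 2.0e-16) and 1.96 ± 0.10 (adjusted P = 2.7e-15) at days 0, 1, 2 and 7. In vehicle cells Dpt rose at day 1 and was back near its day 0 level at day 7, with a log2 fold change of 0.06 ± 0.12 (adjusted P = 0.66), whereas in C70 cells it was higher at day 7 than at day 0 by 0.83 ± 0.10 (adjusted P = 3.0e-09).

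Ecm1 (extracellular matrix protein 1, which binds perlecan and other matrix proteins) lies at chr3:95734147-95739569 on the minus strand. It measured 86.0, 94.7 and 85.1 CPM in vehicle and 181, 182, 172 and 168 CPM in C70 cells at day 0. It peaked in both groups at day 1, with 261, 253 and 247 CPM in vehicle and 615, 547, 560.4 and 595 CPM in C70 cells. At day 7 it measured 17.4, 12.3, 13.3 and 16.8 CPM in vehicle and 29.6, 30.5, 28.4 and 36.9 CPM in C70 cells. The groups were separate throughout, and their log2 fold changes were 0.99 ± 0.08 (adjusted P = 1.8e-10), 1.19 ± 0.08 (adjusted P = 3.9e-13), 1.67 ± 0.09 (adjusted P = 4.2e-16) and 1.07 ± 0.09 (adjusted P = 1.4e-10) at days 0, 1, 2 and 7. From day 0 to day 7 Ecm1 changed by -2.57 ± 0.09 in vehicle and -2.48 ± 0.08 in C70 cells, and the difference between these courses was 0.08 ± 0.12 (adjusted P = 0.65).

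Lama5 encodes the laminin alpha 5 chain, found in basement membranes of mature tissues, and lies at chr2:180176373-180225859 on the minus strand. It measured 102, 115 and 105 CPM in vehicle and 196, 219.8, 211 and 202 CPM in C70 cells at day 0. At day 1 these values were 82.5, 64.1 and 63.6 CPM and 268, 298, 244 and 272 CPM, while day 2 gave 8.50, 9.13 and 6.55 CPM and 48.9, 42.4, 46.5 and 48.7 CPM. The corresponding log2 fold changes were 0.95 ± 0.10 (adjusted P = 2.7e-08), 1.95 ± 0.11 (adjusted P = 3.3e-15) and 2.52 ± 0.14 (adjusted P = 1.3e-15). At day 7 vehicle samples measured 6.93, 13.9, 10.0 and 11.6 CPM and C70 samples 14.2, 11.7, 14.5 and 14.8 CPM, so that the groups overlapped, and the log2 fold change was 0.38 ± 0.14 (adjusted P = 0.029). The day 7 call was lost without any 1 of 5 libraries (vehicle replicates 1 and 3, C70 replicates 1, 3 and 4), with adjusted P values of 0.060 to 0.15 there.

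These 3 genes were higher on all 4 days and were among the 3 largest rises on 1 or more of them. The 250 bases before the RefSeq start of each are therefore shown. They are from RefSeq on GRCm38.p6, read 5′ to 3′ on the gene's strand, and capitals mark CG dinucleotides, whose density sets apart the main kinds of mammalian promoter. The windows lie at chr1:164796413-164796662 for Dpt (plus strand), chr3:95739570-95739819 for Ecm1 (minus strand) and chr2:180225860-180226109 for Lama5 (minus strand). For Dpt the RefSeq start differs from the gene span given above, and the last 19 bases of its window lie inside that span.
Dpt: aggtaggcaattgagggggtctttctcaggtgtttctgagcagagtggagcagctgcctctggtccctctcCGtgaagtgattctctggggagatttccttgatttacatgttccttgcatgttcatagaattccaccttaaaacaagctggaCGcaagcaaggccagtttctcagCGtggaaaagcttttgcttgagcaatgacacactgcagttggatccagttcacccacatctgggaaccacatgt
Ecm1: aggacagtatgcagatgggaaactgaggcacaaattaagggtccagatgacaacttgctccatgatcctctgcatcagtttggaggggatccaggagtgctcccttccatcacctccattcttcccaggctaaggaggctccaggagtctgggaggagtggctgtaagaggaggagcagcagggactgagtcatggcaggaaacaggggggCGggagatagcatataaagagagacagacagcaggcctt
Lama5: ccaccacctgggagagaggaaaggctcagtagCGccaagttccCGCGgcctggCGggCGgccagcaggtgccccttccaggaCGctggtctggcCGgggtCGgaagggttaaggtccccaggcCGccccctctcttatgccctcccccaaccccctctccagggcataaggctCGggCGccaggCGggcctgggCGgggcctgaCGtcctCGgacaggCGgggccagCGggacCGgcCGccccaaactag
The Dpt window holds 3 CG dinucleotides, the Ecm1 window 1 and the Lama5 window 19. Higher expression with C70 was therefore measured for genes with CG-poor and with CG-rich windows.

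RefSeq windows were found for 32 of the 44 members, 39 windows in all. On both strands, GGGCGG (the GC box) was present in 56.4% of them, beside 32.7% of all 32851 windows of that length, TATAAA (the TATA box) in 15.4% beside 12.4%, TGANTCA (the AP-1 motif) in 2.56% beside 6.75%, and GGAATG (the TEAD motif) in 12.8% beside 12.6%. The 1 member window with the AP-1 motif was that of Ecm1, which also held a TATA box and a GC box, and the Lama5 window held 4 GC boxes. The median number of CG dinucleotides was 10 in the windows of members and 6 in all windows. All windows here are those of 27025 genes, not only of the 11959 genes analysed. A match describes the letters of the window only.

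Of the remaining members that were higher on all 4 days, Fbln1 (fibulin 1, which binds fibronectin and elastic fibres) had log2 fold changes of 0.48 ± 0.09, 1.13 ± 0.09, 1.82 ± 0.11 and 0.92 ± 0.13 at days 0, 1, 2 and 7, all with adjusted P values at or below 0.00014. At day 2 it measured 15.2, 14.7 and 15.7 CPM in vehicle and 55.7, 50.6, 55.0 and 52.6 CPM in C70 cells. Thbs3, a thrombospondin of the pentameric kind, measured 39.8, 40.7 and 34.6 CPM in vehicle and 66.2, 65.9, 60.0 and 66.3 CPM in C70 cells at day 0, and its log2 fold changes were 0.75 ± 0.08, 1.18 ± 0.10, 1.28 ± 0.14 and 0.37 ± 0.11. For both genes the C70 samples lay above the vehicle samples on each day. Itga2b, the alpha chain of the platelet fibrinogen receptor, measured 13.9, 12.99 and 13.4 CPM in vehicle and 17.7, 20.5, 20.01 and 17.5 CPM in C70 cells at day 0. By day 7 it measured 6.05, 7.04, 5.88 and 7.51 CPM and 7.08, 8.58, 7.73 and 10.8 CPM. It had log2 fold changes of 0.49 ± 0.10, 0.75 ± 0.12, 0.77 ± 0.13 and 0.37 ± 0.11, and its groups overlapped at day 7. Itgb2 measured 8.22, 8.99 and 8.50 CPM in vehicle and 12.1, 12.6, 13.6 and 11.5 CPM in C70 cells at day 0. By day 7 it measured 0.349, 0.564, 0.441 and 0.329 CPM and 0.858, 0.769, 0.952 and 0.475 CPM. It had log2 fold changes of 0.54 ± 0.12, 0.52 ± 0.14, 0.55 ± 0.22 and 0.84 ± 0.32 at levels that ended under 1 CPM, with overlap at days 2 and 7. Leaving out single libraries ended the day 7 call of Itgb2 in 6 of 29 cases (adjusted P = 0.052 to 0.10), its day 2 call in 4 (adjusted P = 0.054 to 0.15) and its day 1 call in 1 (vehicle replicate 2, adjusted P = 0.058). It also ended the day 7 call of Itga2b without vehicle replicate 3 or C70 replicate 4 and that of Thbs3 without C70 replicate 3. The number of members higher on all 4 days accordingly ranged from 4 to 7 when single libraries were left out, and Dpt, Ecm1 and Fbln1 were among them each time.

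**Figure D3:**
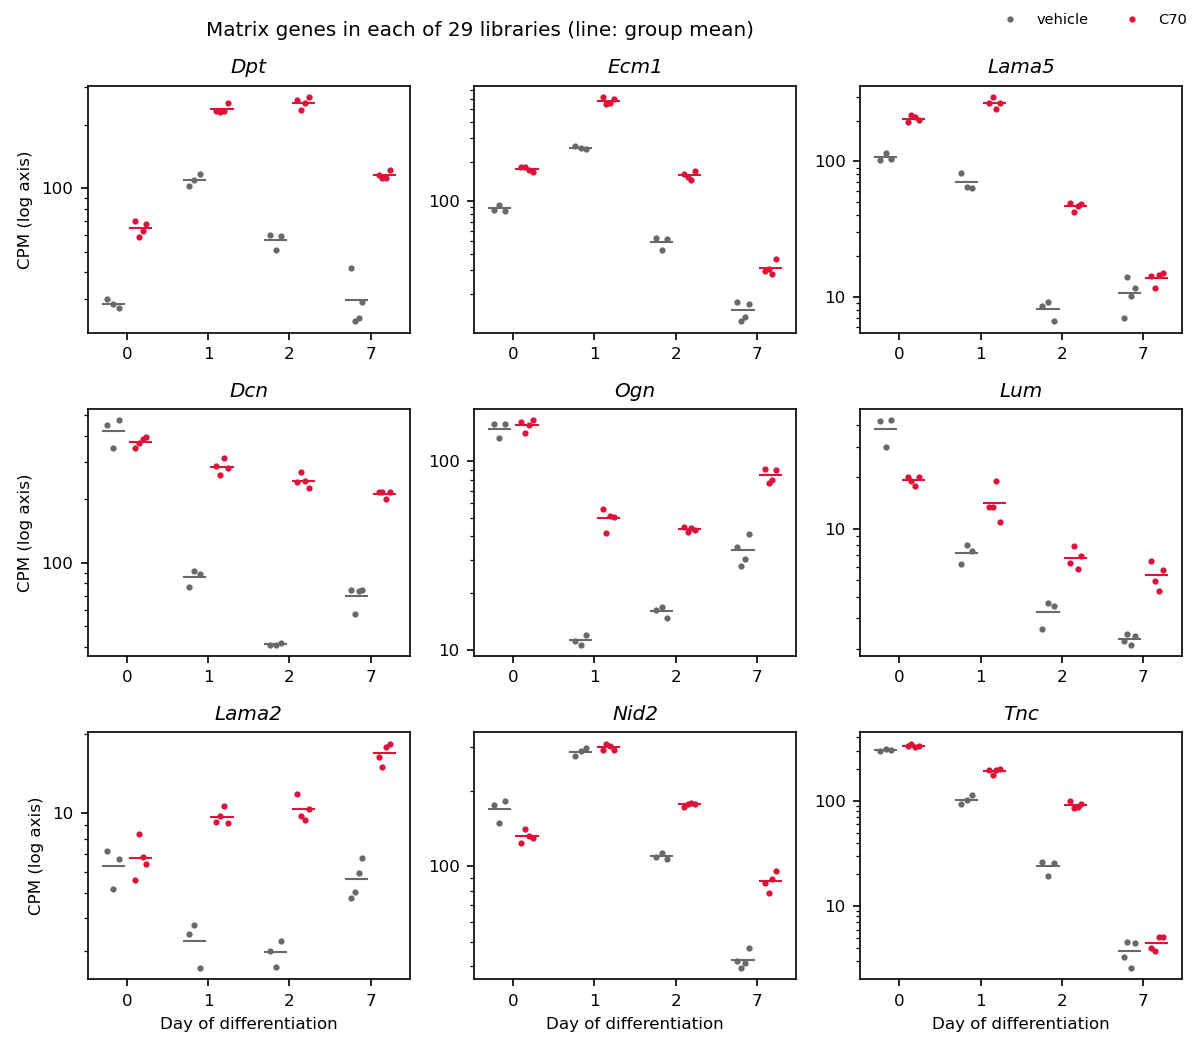
CPM (log axis) of 9 matrix genes in each library at days 0, 1, 2 and 7, with vehicle in grey, C70 in red, points for libraries and lines for group means. Dcn, Ogn, Lum and Lama2 lie higher with C70 from day 1 onward, Lum is lower with C70 at day 0, Nid2 is lower with C70 at day 0 and higher at days 2 and 7, and Tnc is separated at days 0, 1 and 2 and overlaps at day 7.

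Among the small leucine-rich proteoglycans, which bind collagen fibrils and growth factors, 0 were higher at day 0, 3 of 4 at day 1 and all 4 at days 2 and 7. The backgrounds for this and the other classes are the 5.89%, 13.6%, 16.9% and 14.3% of all genes that were higher on these days and the 3.09%, 7.8%, 13.6% and 4.85% that were lower. Dcn (decorin) measured 449, 349 and 474 CPM in vehicle and 349, 369, 388 and 395 CPM in C70 cells at day 0, where the groups overlapped. It fell to 77.3, 91.1 and 88.4 CPM in vehicle and 289, 261, 313 and 280.5 CPM in C70 cells at day 1. On the next day it was at 41.0, 41.0 and 41.8 CPM and 243, 270.0, 244 and 225 CPM. At day 7 it measured 74.6, 57.5, 73.4 and 74.1 CPM in vehicle and 216, 217, 202 and 217 CPM in C70 cells. The log2 fold changes of 1.74 ± 0.09 (adjusted P = 1.1e-15), 2.57 ± 0.10 (adjusted P = 2.2e-19) and 1.61 ± 0.08 (adjusted P = 1.7e-15) at days 1, 2 and 7 followed one of -0.18 ± 0.08 (adjusted P = 0.14) at day 0. From day 0 to day 7 Dcn changed by -0.82 on the log2 scale in C70 cells and -2.60 in vehicle cells, and these courses differed by 1.78 ± 0.12 (adjusted P = 1.3e-12).

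Ogn (osteoglycin) measured 157, 132 and 157 CPM in vehicle and 161, 141, 156 and 164 CPM in C70 cells at day 0. It measured 11.2, 10.7 and 12.01 CPM in vehicle and 55.9, 41.5, 51.5 and 51.0 CPM in C70 cells a day later. The log2 fold change was 0.06 ± 0.09 (adjusted P = 0.69) at day 0, 2.14 ± 0.11 (adjusted P = 1.8e-15) at day 1, 1.44 ± 0.11 at day 2 and 1.32 ± 0.09 at day 7. Lum (lumican), the neighbour of Dcn on chromosome 10, was lower with C70 at day 0, with 42.3, 30.1 and 42.8 CPM in vehicle and 19.9, 18.9, 17.7 and 20.03 CPM in C70 cells and a log2 fold change of -1.01 ± 0.12 (adjusted P = 3.1e-07). At day 1 it was higher, with 6.25, 8.08 and 7.44 CPM in vehicle and 13.4, 13.3, 18.9 and 10.9 CPM in C70 cells and a log2 fold change of 0.95 ± 0.15 (adjusted P = 8.7e-06), and it stayed higher at day 2 (1.04 ± 0.19) and day 7 (1.251 ± 0.21). Its groups did not overlap on any day. Bgn, the highest of the 4 per kb at days 0 and 7, had 1994, 1618, 1695 and 1986 CPM in vehicle and 2689, 2841, 2617 and 2927 CPM in C70 cells at day 7. The C70 effect was 0.20 ± 0.06, 0.18 ± 0.06, 0.56 ± 0.06 and 0.60 ± 0.05 at days 0, 1, 2 and 7, and it was a DEG at days 2 and 7.

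The basement membrane genes differed among themselves. Of 10, 3 were higher and 1 lower at day 0, 4 higher at day 1, 7 higher at day 2, and 7 higher and 1 lower at day 7. Lama2, the alpha chain of laminin 211 in muscle and connective tissue, measured 7.17, 5.14 and 6.68 CPM in vehicle and 5.56, 8.34, 6.85 and 6.40 CPM in C70 cells at day 0, where the groups overlapped (0.09 ± 0.14 (adjusted P = 0.74)). At day 7 it measured 4.77, 5.02, 5.93 and 6.74 CPM in vehicle and 16.3, 15.02, 17.8 and 18.4 CPM in C70 cells. Its log2 fold changes were 1.56 ± 0.15 (adjusted P = 6.5e-10), 1.81 ± 0.15 (adjusted P = 1.6e-11) and 1.58 ± 0.12 (adjusted P = 6.8e-12) at days 1, 2 and 7, with no overlap.

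Nid2 (nidogen 2, which links laminin to collagen IV) went from lower to higher. It measured 176, 149 and 182 CPM in vehicle and 124, 141, 132 and 129 CPM in C70 cells at day 0. The day 7 values were 41.8, 39.3, 41.1 and 47.3 CPM and 86.2, 78.5, 89.2 and 95.6 CPM. The log2 fold changes of Nid2 were -0.36 ± 0.06 (adjusted P = 6.4e-05), 0.05 ± 0.06 (adjusted P = 0.5), 0.69 ± 0.06 (adjusted P = 1.3e-10) and 1.04 ± 0.06 (adjusted P = 3.5e-14), and the groups overlapped at day 1 alone. The day 0 call was lost without vehicle replicate 3, where the value was -0.30.

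Several other basement membrane genes were DEGs at day 7. Lamb1, the laminin beta 1 chain, measured 568, 642, 635 and 636 CPM in vehicle and 830.5, 794, 874 and 848 CPM in C70 cells at day 7, a log2 fold change of 0.43 ± 0.04 (adjusted P = 1.9e-09). Nid1 (0.46 ± 0.06), Lama4 (0.35 ± 0.05) and Hspg2, the perlecan gene (0.94 ± 0.09), were higher as well, Lama4 not without vehicle replicate 1 (0.29). Lamc1 was a DEG at day 2 alone (0.43 ± 0.07) and Lamb2 at days 0, 1 and 2 (0.35 ± 0.06, 0.39 ± 0.06 and 0.63 ± 0.06), the day 0 value being 0.316 and not called under quantile normalization.

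Of the elastic fibre genes, 1 was higher and 1 lower at day 0, 4 of 6 were higher at days 1 and 2, and all 6 were higher at day 7. Fbn1 measured 64.3, 58.2 and 63.6 CPM in vehicle and 119, 105, 113 and 113 CPM in C70 cells at day 2. By day 7 it measured 11.7, 14.1, 12.98 and 14.6 CPM and 26.2, 22.1, 30.7 and 32.2 CPM. Its log2 fold change was 0.26 ± 0.07 (adjusted P = 0.0081), 0.44 ± 0.07 (adjusted P = 1.1e-05), 0.86 ± 0.08 (adjusted P = 7.3e-11) and 1.06 ± 0.09 (adjusted P = 3.6e-11) at days 0, 1, 2 and 7, the day 0 value being under the fold-change limit. Fbln2, the highest of the class per kb at day 0, measured 1492, 1450.1 and 1428 CPM in vehicle and 2365, 2115, 2342 and 2377 CPM in C70 cells at day 2, and its log2 fold changes were 0.25 ± 0.06, 0.34 ± 0.06, 0.66 ± 0.06 and 0.66 ± 0.06. The day 1 call of Fbln2 was lost in 3 of 29 cases without a single library, with values of 0.30 to 0.32.

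Fbln7 was the member of this class that changed direction. It measured 23.6, 15.6 and 22.2 CPM in vehicle and 12.95, 12.2, 14.9 and 11.3 CPM in C70 cells at day 0, a log2 fold change of -0.68 ± 0.12 (adjusted P = 1.3e-04). At day 7 it measured 0.582, 0.733, 0.931 and 0.932 CPM and 2.09, 1.54, 2.26 and 1.37 CPM, a log2 fold change of 1.17 ± 0.26 (adjusted P = 6.2e-04). The groups were separate at these days and overlapped at days 1 (-0.25 ± 0.22) and 2 (0.23 ± 0.22). Under quantile normalization the day 1 value was -0.48 (limma, adjusted P = 0.047) and the day 7 value 0.69. Fbln5, which links elastin to integrins, was higher at days 1, 2 and 7 (0.34 ± 0.09, 0.75 ± 0.10 and 0.35 ± 0.08), with the day 1 and day 7 values close to the fold-change limit and under it without some single libraries. Efemp2 was a DEG at day 7 alone (0.38 ± 0.06), and not without vehicle replicate 2 (0.31).

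All 7 of the other matrix proteins were higher at day 2 (background 16.9%) and 6 at day 7 (background 14.3%). Tnc measured 92.4, 101 and 113 CPM in vehicle and 195, 177, 195 and 199 CPM in C70 cells at day 1. It measured 26.3, 19.5 and 25.7 CPM and 99.2, 85.4, 87.6 and 94.3 CPM at day 2. In day 7 samples it stood at 3.259, 4.56, 2.60 and 4.49 CPM and 4.02, 3.79, 5.12 and 5.12 CPM. Its log2 fold change was 0.14 ± 0.08 (adjusted P = 0.26), 0.91 ± 0.08 (adjusted P = 4.1e-10), 1.95 ± 0.09 (adjusted P = 1.2e-16) and 0.29 ± 0.16 (adjusted P = 0.17) at days 0, 1, 2 and 7. The groups were separate at days 0, 1 and 2 and overlapped at day 7.

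Fn1 measured 14509, 16460.0 and 15541 CPM in vehicle and 17279.9, 19300.4, 18615 and 18174 CPM in C70 cells at day 0. Day 2 gave 2305, 2285 and 2123 CPM and 4655, 3992, 4532 and 4549 CPM, respectively. In day 7 samples it stood at 818, 975, 1004 and 1081 CPM and 1531, 1447, 1673 and 1761 CPM. Its log2 fold changes were 0.24 ± 0.07 (adjusted P = 0.019), 0.49 ± 0.07 (adjusted P = 4.0e-06), 0.99 ± 0.08 (adjusted P = 3.3e-12) and 0.72 ± 0.07 (adjusted P = 6.8e-10), the first of them under the fold-change limit. Under quantile normalization the day 0 value was 0.64, and Fn1 was called there (limma, adjusted P = 2.6e-06). Postn, a matrix protein that binds integrins and tenascin-C, had log2 fold changes of -0.22 ± 0.07, 0.35 ± 0.07, 1.15 ± 0.07 and 1.45 ± 0.07 at days 0, 1, 2 and 7, and was a DEG at the last 3 days, at day 1 not without vehicle replicate 1 (0.316). Vcan, the large hyaluronan-binding proteoglycan versican, was a DEG at days 2 (0.79 ± 0.09) and 7 (0.87 ± 0.09), as was Sparc (0.60 ± 0.07 and 0.80 ± 0.06).

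The thrombospondins, which regulate adhesion and the activation of growth factors, differed in how many days they were higher. Thbs2, the highest of them per kb at day 0, measured 1264, 1084 and 1241 CPM in vehicle and 1155, 1171, 1166 and 1194 CPM in C70 cells at day 0. Its day 2 values were 138, 142 and 129.9 CPM and 260.2, 220.0, 249.7 and 250.3 CPM. The log2 fold changes of Thbs2 were -0.03 ± 0.07 (adjusted P = 0.82), 0.51 ± 0.07 (adjusted P = 6.2e-07), 0.84 ± 0.07 (adjusted P = 2.4e-11) and 0.74 ± 0.07 (adjusted P = 2.0e-10). Thbs1 was a DEG at day 2 alone (0.39 ± 0.10), and not without C70 replicate 1 (0.29).

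Of the 12 integrin chains, 4, 6, 6 and 4 were DEGs at days 0, 1, 2 and 7 (background 8.97%, 21.4%, 30.5% and 19.1%). Of the 30 matrix protein genes, 10, 18, 25 and 26 were, and the difference between these classes was not tested. The chains with lower expression on any day were the laminin receptor chains Itga6 and Itga7. Itga6 measured 38.2, 47.5 and 42.9 CPM in vehicle and 70.6, 76.3, 70.8 and 71.2 CPM in C70 cells at day 0, a log2 fold change of 0.75 ± 0.08 (adjusted P = 1.6e-08). At day 1 it measured 69.6, 71.3 and 65.6 CPM and 76.9, 74.0, 75.2 and 76.8 CPM (0.14 ± 0.08 (adjusted P = 0.15)). The day 2 values were 351, 362 and 356 CPM in vehicle and 179, 198, 199 and 188 CPM in C70 cells, a log2 fold change of -0.90 ± 0.07 (adjusted P = 5.3e-12). At day 7 the groups overlapped, with 351, 480.1, 464 and 426 CPM in vehicle and 414, 392, 441 and 393 CPM in C70 cells (-0.07 ± 0.07 (adjusted P = 0.42)).

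Itga7 had log2 fold changes within their error of 0 at days 0 and 1 (0.04 ± 0.10 and 0.04 ± 0.09). At day 2, when it had risen in both groups, it measured 50.7, 59.6 and 52.8 CPM in vehicle and 27.5, 28.3, 28.5 and 28.9 CPM in C70 cells, a log2 fold change of -0.94 ± 0.06 (adjusted P = 2.3e-14). At day 7 it measured 142, 160.0, 149 and 159 CPM in vehicle and 131, 138, 135 and 138 CPM in C70 cells (-0.17 ± 0.05 (adjusted P = 0.0046)), a difference under the fold-change limit. From day 0 to day 7, Itga7 changed by 4.91 ± 0.07 in vehicle and 4.69 ± 0.07 in C70 cells. By group means, Itga6 and Itga7 at day 2 thus lay between days 1 and 7 in both groups, and lower with C70. For Itga6, vehicle replicate 1 of day 7 lay just below the day 2 vehicle samples. Itga3, the remaining laminin receptor chain, was higher at days 0 and 1 (0.46 ± 0.09 and 0.46 ± 0.12).

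**Figure D4:**
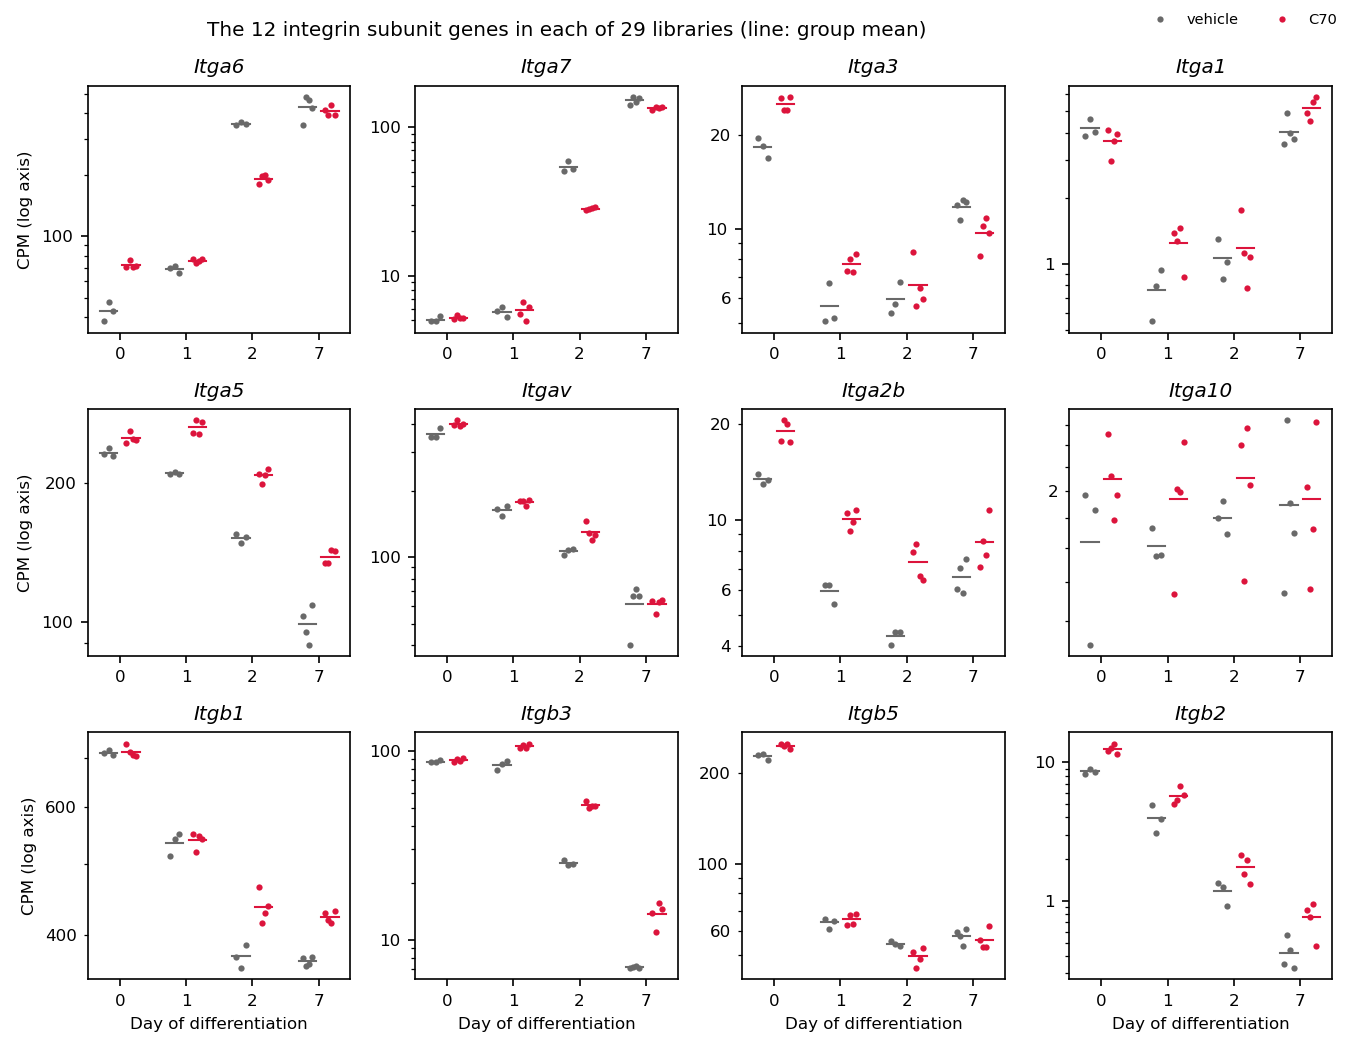
CPM (log axis) of the 12 integrin chain genes in each library at days 0, 1, 2 and 7, with vehicle in grey, C70 in red, points for libraries and lines for group means. Itga6 and Itga7 climb and lie lower with C70 at day 2, whereas Itga5 and Itgb3 decline and lie higher with C70 at days 1, 2 and 7.

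The chains that bind fibronectin and vitronectin declined during the normal course, and Itga5 and Itgb3 declined less with C70 (interaction from day 0 to day 7 0.38 ± 0.07 (adjusted P = 4.3e-05) and 0.91 ± 0.09 (adjusted P = 9.8e-09)). Itga5, the alpha chain of the fibronectin receptor, measured 155, 148 and 153 CPM in vehicle and 209, 199.7, 208 and 215 CPM in C70 cells at day 2. By day 7 it measured 103, 94.8, 89.1 and 109 CPM and 134, 134, 143 and 143 CPM. Its log2 fold changes were 0.10 ± 0.05 (adjusted P = 0.13), 0.33 ± 0.05 (adjusted P = 1.7e-06), 0.45 ± 0.05 (adjusted P = 4.0e-09) and 0.49 ± 0.05 (adjusted P = 6.7e-10) at days 0, 1, 2 and 7. Itgb3, the partner of Itgav and Itga2b, measured 26.4, 24.8 and 25.1 CPM in vehicle and 54.3, 49.7, 51.2 and 51.0 CPM in C70 cells at day 2. By day 7 it measured 7.10, 7.16, 7.25 and 7.13 CPM and 13.8, 10.9, 15.6 and 14.6 CPM. The log2 fold changes of Itgb3 were 0.03 ± 0.05 (adjusted P = 0.79), 0.33 ± 0.05 (adjusted P = 1.3e-05), 1.02 ± 0.06 (adjusted P = 1.2e-14) and 0.94 ± 0.08 (adjusted P = 4.1e-11). The day 1 values of both chains lay close to the fold-change limit, and each call was lost with the replicate number as a block (0.32 for Itga5 and 0.31 for Itgb3).

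Itgav fell by -2.56 in vehicle and -2.71 in C70 cells from day 0 to day 7, and its C70 log2 fold changes were 0.15 ± 0.10, 0.12 ± 0.10, 0.29 ± 0.10 and -0.00 ± 0.10. Itgb5 fell mostly within the first day, by -1.82, and its C70 log2 fold changes were 0.12 ± 0.05, 0.03 ± 0.05, -0.14 ± 0.06 and -0.04 ± 0.05. Itgb1 measured 373, 360.4 and 388 CPM in vehicle and 466, 416, 429 and 438 CPM in C70 cells at day 2, where its log2 fold change of 0.23 ± 0.04 (adjusted P = 1.7e-05) was beyond the replicate error and under the fold-change limit. Itga1, a collagen receptor chain, was a DEG at day 1 (0.70 ± 0.27 (adjusted P = 0.036)) at levels of 0.548 to 1.47 CPM, and not in 5 of 29 cases without a single library. The annotation places the gene Pelo over Itga1 on the same strand. Itga10, another collagen receptor chain, stayed between 1.09 and 2.65 CPM in all libraries.

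The 2 genes for integrin-associated proteins went the other way. Itgb3bp, which also encodes a centromere protein, measured 7.71, 7.94 and 7.16 CPM in vehicle and 5.19, 4.63, 5.57 and 5.01 CPM in C70 cells at day 1, a log2 fold change of -0.58 ± 0.13 (adjusted P = 8.6e-04). Itgb1bp1, which encodes a regulator of Itgb1 activation, measured 48.7, 42.4 and 45.8 CPM in vehicle and 34.2, 34.4, 33.8 and 36.0 CPM in C70 cells at day 2, a log2 fold change of -0.40 ± 0.07 (adjusted P = 2.9e-05). Neither was a DEG on another day.

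Whether the C70 effect itself changed between days was tested by interaction terms. From day 0 to day 1 it moved upward for 13 members and downward for 1 (background 13.9%, with 8.68% upward and 5.23% downward). From day 1 to day 2 it moved upward for 18 and downward for 4 (background 13.8%, with 7.36% and 6.49%). The gains at day 1 were largest in Ogn (2.08 ± 0.14 (adjusted P = 8.6e-12)), Lum (1.96 ± 0.20 (adjusted P = 1.4e-08)) and Dcn (1.92 ± 0.12 (adjusted P = 1.1e-12)). From day 2 to day 7 the effect moved upward for 6 and downward for 10 (background 20.9%, with 11.9% and 9.04%), with the largest losses in Lama5 (-2.14 ± 0.20 (adjusted P = 8.9e-10)) and Tnc (-1.66 ± 0.19 (adjusted P = 6.6e-08)). The upward moves in that interval included Itga6 (0.83 ± 0.10 (adjusted P = 7.3e-08)) and Itga7 (0.77 ± 0.08 (adjusted P = 3.2e-09)), whose lower expression at day 2 was no longer called at day 7.

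Side by side, 33 members (75.0%, background 32.1%) fell from day 0 to day 7 in both vehicle and C70 cells and 2 (Itga6 and Itga7, background 32.5%) rose in both. The C70 course had 6 members higher and 34 lower at day 7 than at day 0, with 35.9% and 35.4% of all genes higher and lower, and a member median of -1.23. The courses differed by the interaction test in 27 members, 22 with the higher value in C70 cells and 5 with the lower (background 22%, with 14% and 7.96%). Lama2 rose in C70 cells alone (1.32 ± 0.11 beside -0.18 ± 0.14 in vehicle, interaction 1.497 ± 0.18 (adjusted P = 1.7e-07)), as did Nid1 (0.37 ± 0.06 beside -0.32 ± 0.06, interaction 0.69 ± 0.09 (adjusted P = 2.6e-07)) and Dpt. Itga1 was also called in C70 cells alone, but its interaction of 0.54 ± 0.22 (adjusted P = 0.061) did not pass the test. Lamb1 fell in vehicle cells and not in C70 cells (-0.46 ± 0.05 and -0.01 ± 0.04, interaction 0.46 ± 0.06 (adjusted P = 1.5e-06)).

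**Figure D5:**
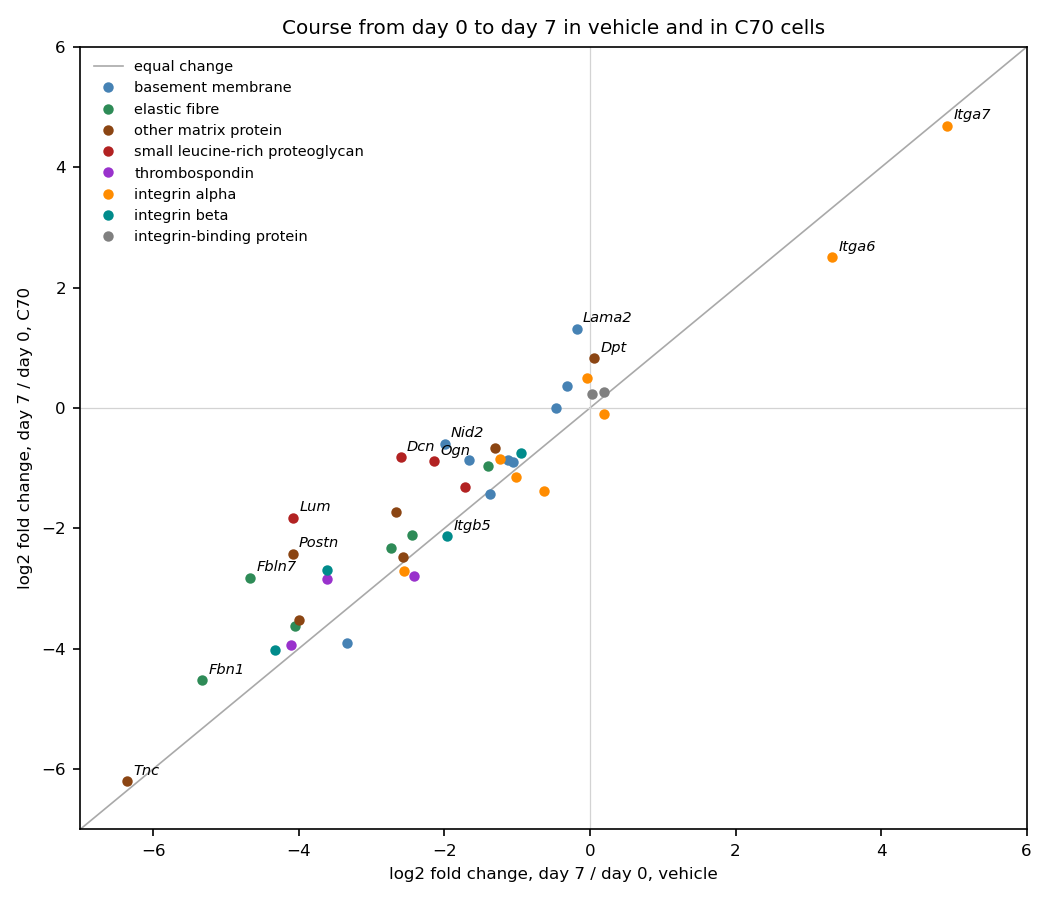
Log2 fold change from day 0 to day 7 in vehicle cells (horizontal axis) and in C70 cells (vertical axis) for 43 of the members, coloured by role, with a grey line where both changes are equal. Most points lie at negative values on both axes, Itga6 and Itga7 lie at the upper right, and Lama2 and Dpt lie near 0 in vehicle cells and at 1.32 and 0.83 in C70 cells.

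Genes that act beside the members were examined as 3 lists, whose counts stand beside backgrounds of 5.89%, 13.6%, 16.9% and 14.3% higher and 3.09%, 7.8%, 13.6% and 4.85% lower at days 0, 1, 2 and 7. The fibre assembly list (lysyl oxidases, which cross-link elastin and collagen, latent TGF-beta binding proteins, emilins and related genes) had 18 of 18 genes measured, of which 5, 7, 12 and 13 were higher and 2, 1, 0 and 0 lower at days 0, 1, 2 and 7. Its members included Lox (1.21 ± 0.06 at day 2), Ltbp4 (1.63 ± 0.09) and Adamtsl4 (2.07 ± 0.11), while the growth factor genes Tgfb2 (-0.40 ± 0.07) and Tgfb3 (-0.41 ± 0.05) were lower at day 0. Tgfb3 was also lower at day 1 (-0.63 ± 0.06), and Tgfb2 was higher at day 2 (0.39 ± 0.08) and day 7 (0.72 ± 0.08). Of the adhesion complex list, which joins integrins to actin, 24 of 25 genes were measured, and 1, 6, 8 and 5 were higher and 0, 0, 1 and 1 lower at days 0, 1, 2 and 7. Actn1 (alpha-actinin 1, 0.92 ± 0.05) and Flna (filamin A, 0.87 ± 0.07) were among those higher at day 2, and Vcl (vinculin, -0.32 ± 0.06) was lower. Of 15 other matrix receptors, 14 were measured, and 1, 3, 5 and 5 were higher and 0, 1, 1 and 1 lower. Cd44, the hyaluronan receptor, was higher at day 2 (0.50 ± 0.05) and day 7 (0.87 ± 0.07). Cd36, the thrombospondin and fatty acid receptor, was lower at day 1 (-0.87 ± 0.06) and day 2 (-0.43 ± 0.06) and higher at day 7 (0.33 ± 0.06). The medians of the lists at day 2 were 0.68, 0.19 and 0.17, beside a median near 0 over all genes.

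Markers of the stage of the cells were examined beside these results. Of 6 preadipocyte or fibroblast markers 5 were measured. Their summed CPM was 3824 to 3982 in vehicle and 4415 to 4705 in C70 cells of day 0. Dlk1 made up most of that sum, with mean levels of 2572 CPM in vehicle and 2913 CPM in C70 cells (0.18 ± 0.09, no DEG). Of the 5 markers, only Thy1 and Ly6a were DEGs at day 0, both higher with C70. The sums were 1745 to 1786 and 2246 to 2389 a day later, 699 to 727 and 1063 to 1147 on day 2, and 375 to 513 and 801 to 940 at the end (day 7). Of 8 adipocyte markers 7 were measured, with sums of 1276 to 1399 in vehicle and 1453 to 1509 in C70 cells of day 0, where Pparg (-0.50 ± 0.06) and Fabp4 (-0.41 ± 0.08) were lower with C70. Lpl made up most of the day 0 sum, with mean levels of 1237 CPM in vehicle and 1399 CPM in C70 cells (0.18 ± 0.04). The sums were 4973 to 5236 in vehicle and 3097 to 3221 in C70 cells of day 1. They were 22099 to 22959 and 12465 to 13894 on day 2, and 25063 to 30364 and 27547 to 30579 at the end. The adipocyte sums thus overlapped at day 7, where Adipoq alone of the 7 was a DEG, higher with C70 (0.35 ± 0.07). Of 5 smooth muscle or myofibroblast markers 3 were measured, with sums of 511 to 622 in vehicle and 666 to 740 in C70 cells of day 0. These sums were 6.83 to 8.67 and 17.2 to 20.3 a day later and 5.47 to 5.71 and 9.50 to 12.9 on day 2. At the end they were 47.2 to 68.7 and 49.5 to 53.9, where the groups overlapped. In vehicle cells Acta2 made up most of the day 0 sum (mean 535 CPM, and 8.74 CPM at day 7) and Des most of the day 7 sum (mean 43.9 CPM, and 5.05 CPM at day 0). The macrophage marker Cd68 measured 1.13 to 1.67 CPM in vehicle and 18.7 to 19.8 CPM in C70 cells of day 0, 1.74 to 2.01 and 13.6 to 15.1 CPM a day later, 1.33 to 1.75 and 6.35 to 6.94 CPM on day 2, and 1.92 to 2.69 and 1.06 to 2.79 CPM by day 7. The part of these differences in the results for the matrix and integrin genes was not tested.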

How the data were processed

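RNA of 3T3-L1 cells was sequenced in 29 libraries, with strand-specific preparation. Alignment by the authors used STAR 2.7.2a, the GRCm38 genome and the annotation of Ensembl 97. The submitters' processing notes name edgeR 3.26.8. The counting program, its strand setting and the criteria of any filter on low genes are not given in the sources used here. The deposited counts are named normalized and filtered. They are whole numbers per gene, not scaled between samples, for 11959 genes, 11953 of them with a symbol. From these counts, all 29 samples were fitted in 1 model of 8 group means without covariates by the edgeR 4.0.16 quasi-likelihood test in R 4.3.3, with TMM factors (0.898 to 1.08) and Benjamini-Hochberg adjustment per comparison. A DEG needed an adjusted P value under 0.05 together with a change of over 1.25-fold (0.32 on the log2 scale). Library totals were 16320275 to 24037170. The biological coefficient of variation was 0.0594, and replicates differed by more than counting noise (chi-square per degree of freedom 2.65 to 46.7, median 5.09, over 39 pairs).

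The members, the lists of other genes and markers and the comparisons were chosen with earlier results of these data known. Values in every sample, at 1 or more of the days, were given for 25 members chosen by rule, while 1 member is counted in the totals and not otherwise reported here. The rule took the 3 largest rises and 3 largest falls among DEGs of each C70 comparison and of vehicle day 7, members called on all 4 days or in opposite directions, the highest mean CPM of each class, and the 2 largest interactions in each direction from day 2 to day 7. Itga5, Itgb3 and Itga1 were given at some days beyond this rule, chosen after their values were seen. Gene positions and exon lengths are from GENCODE M21 (GRCm38), and promoter windows from RefSeq on GRCm38.p6. Tested on simulated data in which 200 of 11959 genes were changed 2-fold at day 2, the test recovered 97.5% of them with 8 false calls. All other genes kept the same mean level in every simulated group, unlike in the data. These figures therefore do not cover changes near the 1.25-fold limit. The alternatives were DESeq2 1.42.0 and its size factors, limma 3.58.1 with and without quantile normalization, other thresholds, removal of the lowest 10% of genes, a fit per day, the replicate number as a block and leaving out each library.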

Additional observations from a re-analysis of the deposited data

Results flagged for a closer look

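In groups of 4 libraries, a library that stood apart from the other 3 (Dixon's test at the 95% level) was looked for in 125 sets of values of the members given in full, and 9 were found where chance would give 6.25. In vehicle cells at day 7, Dcn measured 57.5 CPM in replicate 2 (73.4 to 74.6 in the others) and Lamb1 567.9 CPM in replicate 1 (635 to 642 in the others). In C70 cells at day 7, Dcn measured 201.5 CPM in replicate 3 (216 to 217) and Fbln1 16.1 CPM in replicate 4 (14 to 14.3). At day 0, C70 replicate 2 had 76.3 CPM of Itga6 (70.6 to 71.2) and C70 replicate 3 had 60.0 CPM of Thbs3 (65.9 to 66.3). Dpt measured 253.7 CPM in C70 replicate 4 at day 1 (230.5 to 232). At day 2, Fbln2 measured 2115 CPM in C70 replicate 2 (2342 to 2377) and Itgb3bp 6.11 CPM in C70 replicate 3 (4.16 to 4.33). None of the 29 libraries held more than 1 of these values, and 1 of those named, vehicle replicate 1 of day 7, also stood apart from its group over all genes.

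The C70 effect differed between days by the interaction test for several named members. From day 2 to day 7 it changed by -2.14 for Lama5, -1.66 for Tnc, -0.97 for Dcn, -0.91 for Thbs3, -0.90 for Fbln1 and -0.60 for Ecm1 on the log2 scale. It changed in the other direction by 0.94 for Fbln7, 0.83 for Itga6, 0.77 for Itga7, 0.37 for Itgb1bp1 and 0.36 for Nid2. The Fbln7 value did not pass the test in 9 of 29 cases without a single library, with adjusted P values of 0.054 to 0.10, nor under quantile normalization (0.679, adjusted P = 0.053, limma). The Nid2 value fell under the fold-change limit without C70 replicate 4 of day 7 (0.312) and under quantile normalization (0.319). Among the members called in opposite directions on different days, the effect at day 7 differed from that at day 0 by 2.26 for Lum, 1.85 for Fbln7, 1.40 for Nid2 and -0.82 for Itga6.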

How the results depend on the processing

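The numbers of called members changed little with most settings. With the fold-change limit raised to 1.5-fold, 8 members were called at day 0, 13 at day 1, 9 for the change of the C70 effect from day 0 to 1, 13 from day 1 to 2 and 10 from day 2 to 7, beside 14, 25, 14, 22 and 16 (3.3%, 9.12%, 5.59%, 5.33% and 9.48% of all genes at the raised limit). When single libraries were left out, 13 to 14, 20 to 25, 30 to 33 and 26 to 32 members were called at days 0, 1, 2 and 7. The replicate numbers did not pair the samples (correlations of 13 same-numbered pairs from -0.20 to 0.21, 2 of them over 0.1, and 3 of 13 vehicle libraries correlating best with their own number). With the replicate number as a block, 11, 22, 29 and 29 members were higher and 3, 1, 3 and 1 lower at days 0, 1, 2 and 7. Under quantile normalization, 11, 21, 27 and 26 were higher and 4, 2, 3 and 2 lower (5.06%, 11.4%, 15.1% and 10.7% and 3.39%, 11%, 16.4% and 6.95% of all genes), with, among the members reported by name, calls lost for Lamb2 at day 0, for Fbln2, Itga1, Itga5 and Itgb2 at day 1, for Itgb2 at day 2 and for Itgb2, Lama5, Itga2b and Thbs3 at day 7, while gained calls were looked up only for members given in every sample (Fn1 at day 0, 0.637, Fbln7 at day 1, -0.481, and Itgb3bp in vehicle cells from day 0 to 7, 0.339). The count of members higher on all 4 days was 4 under quantile normalization and in a separate fit per day. It was 6 with limma on log2 CPM. With DESeq2, DESeq2 size factors, the lowest 10% of genes removed or the replicate block it was 7. It was not counted at the other thresholds. Sign changes concerned values near 0 that were not called in the main test. Quantile normalization gave -0.105 for Itga7 at day 1, -0.0368 and -0.0514 for Itgb1 at days 0 and 1, and 0.15 for Lama2 in vehicle cells from day 0 to 7, and the fit per day gave -0.0013 for Itgb1 at day 0. Leaving out single libraries gave -0.0327 to 0.102 for Itga7 at day 1, -0.0065 to 0.0126 for Itgb1 at day 0 and -0.0171 to 0.0338 at day 1, -0.0739 to 0.0815 for Itgb1bp1 at day 7, and, at day 0, -0.0354 to 0.188 for Lama2, -0.0138 to 0.108 for Ogn and -0.0962 to 0.0115 for Thbs2. In vehicle cells from day 0 to 7 it gave -0.15 to 0.15 for Dpt and -0.0772 to 0.159 for Itgb3bp. The cause of these changes was not tested. Depth limits members under about 1 CPM, here Itgb2, Itga1 and Fbln7.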
